A study of Rattus norvegicus with 16 samples.

Results

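The proximal femur of the Copenhagen 2331 rat (COP) was set against that of the Dark Agouti rat (DA), gene by gene, on 4 arrays of each strain. These 8 arrays, chosen by the strain named in their titles, belong to a series of 16 arrays that also holds 4 of F344 (Fischer 344) and 4 of LEW (Lewis). Every animal was 4 weeks old, and the labels record no treatment, sex or introduced allele, so strain is the only recorded difference. COP and DA are inbred laboratory strains: DA rats are known for their susceptibility to experimentally induced arthritis, and COP rats for their resistance to chemically induced mammary tumours. The series was built around a chromosome 4 locus found in a cross of F344 with LEW, and COP and DA were not parents of that cross.

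A proximal femur of a young rat holds the growth plate, where cartilage is replaced by bone, the bone-forming osteoblasts and the osteocytes they become, the bone-resorbing osteoclasts, and red marrow that makes red cells, granulocytes, platelets and lymphocytes. Attached muscle, fat and vessels add their own transcripts. A marker each of bone, cartilage and muscle was high on the arrays of both strains. Bglap, which encodes osteocalcin of osteoblasts, gave signals of 56007, 57912, 52577 and 51287 in COP, against 50523, 55629, 54407 and 63221 in DA. Col2a1, the collagen of cartilage, gave signals of 57520.3, 58074, 55166 and 47470.2 in COP, against 53908, 56342, 54219.7 and 61920.3 in DA. Acta1, the actin of skeletal muscle, gave signals of 59048, 55136, 53853 and 53024 in COP, against 56676, 56729, 59182 and 72850.3 in DA. The 2 strains overlapped for each of these genes, although the muscle list as a whole, given below, leaned lower in COP. In a mixed piece of tissue such as this, fewer cells of a type and less RNA per cell cannot be told apart.

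Signals are linear values that the authors had scaled within each array, and differences are given on the log2 scale as COP minus DA, so that a positive value means higher in COP and a value of 1 is 2-fold. Arrays correlated at 0.983 to 0.988 within COP, at 0.982 to 0.983 within DA and at 0.964 to 0.972 between them, over all probe sets kept. The ratio of 3' to 5' signal, a measure of RNA integrity, averaged 1.01 ± 0.0278 in COP and 1.02 ± 0.0126 in DA for Gapdh (SD, n = 4 each, two-sided exact permutation p = 0.429). For actin it averaged 1.98 ± 0.0665 in COP and 1.996 ± 0.1196 in DA (p = 0.8286 in the same exact test). For hexokinase it was 2.41, 4.12, 2.56 and 2.44 in COP, against 3.46, 3.45, 3.35 and 3.61 in DA (exact permutation p = 0.143), so that COP replicate 2 was above DA and the other COP arrays were below. The smallest p that 4 arrays against 4 allow is 0.0286. The part of RNA integrity in the differences between strains was not tested. Of 10548 genes tested, 1282 passed limma at an adjusted p under 0.05, which is 12.2%, with 605 higher in COP (5.74%) and 677 lower (6.42%). The 4 COP arrays did not overlap the 4 DA arrays for 1766 genes (16.7%). Most of the calls were small: their median absolute difference was 0.41 with a median SE of 0.093, and 86 genes (0.815%) were called with a change of at least 2-fold, 42 of them higher and 44 lower in COP. Counted over 18625 probe sets in place of genes, 11.9% were called, 5.94% higher and 5.93% lower in COP, 16.4% did not overlap, and 1.23% were called with at least 2-fold. Over all genes the median difference was 0.003.

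The 15 genes with the largest rises in COP began with a motor protein and a proton pump relative that DA arrays barely registered. Myo5c, a class V unconventional myosin that carries secretory vesicles along actin, had signals of 6351, 7495, 7584 and 8316 in COP, against 78.1, 54.4, 51.2 and 75.5 in DA. All 4 DA arrays lay under the signal of 174 used as the lower limit for testing, and the other 3 strains were all high, with 5486 ± 212 in F344 and 10851 ± 1037 in LEW (SD, n = 4 each). With the DA arrays raised to that signal, COP was at least 42.7-fold higher. The fitted difference, which rests on the dim DA values, was 6.86 (SE 0.12, limma adjusted p = 5.37e-20), and the gene's other kept probe set gave 5.19 and was also called. Atp6ap1l, which resembles an accessory subunit of the vacuolar proton pump, had signals of 755, 949, 917 and 919 in COP, against 16.4, 30.1, 20.8 and 25.5 in DA. On the same footing COP was at least 5.08-fold higher, and the fitted difference was 5.29 (SE 0.18, limma adjusted p = 8.03e-15). The DA arrays were again low alone, since F344 and LEW averaged 585 ± 97.7 in F344 and 820.1 ± 111 in LEW.

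Several of the other rises encode proteins of innate immunity. Lcn2, the neutrophil lipocalin that binds bacterial iron carriers, had signals of 15023, 17135, 18109 and 18374 in COP, against 1055, 1026, 1048 and 963 in DA. Its difference was 4.06 (SE 0.066, limma adjusted p = 3.79e-20), and COP stood above all 12 other arrays, although LEW with 12526 ± 651 was also far above F344 with 834 ± 30.3. Lbp, which hands bacterial lipopolysaccharide to its receptor complex, had signals of 3823, 4016, 4369.5 and 3743 in COP, against 1388, 1230.3, 1249.8 and 1241 in DA, a difference of 1.64 (SE 0.073, limma adjusted p = 1.26e-12). For Lbp the 4 COP arrays were above and the 4 DA arrays below every array of the remaining strains. Pira2, an activating immunoglobulin-like receptor of myeloid and B cells, showed the same arrangement, with a difference of 1.70 (SE 0.14, limma adjusted p = 4.25e-08) and levels of 882 ± 53.03 in COP and 276 ± 53.9 in DA (SD, n = 4 each). Mx2, an interferon-induced GTPase that blocks viruses, had signals of 746, 1302, 1076 and 1695 in COP, against 198, 237, 219 and 236 in DA, a difference of 2.38 (SE 0.28, limma adjusted p = 4.72e-06). Il12a, a subunit of the cytokine interleukin 12, rose by 1.39, and Fcrl2, an Fc receptor-like protein, by 1.59.

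Abca1, which exports cholesterol from cells, had signals of 3770.5, 2929, 2946 and 2981 in COP, against 618, 475, 524 and 510.1 in DA, a difference of 2.57 (SE 0.11, limma adjusted p = 6.87e-13). COP replicate 1 was the highest of these arrays, and the groups did not overlap. The probe sets differed: of Abca1's 3 other kept probe sets, 1 was called at 1.51 and the others gave -0.18 and -0.04. Uhrf1, which brings the maintenance DNA methyltransferase to newly copied DNA, averaged 2489 ± 181 in COP and 705 ± 157 in DA (SD, n = 4 each), a difference of 1.85 (SE 0.17, limma adjusted p = 1.21e-07). Myl4, a myosin light chain of embryonic muscle and the atrium, differed by 1.89 (SE 0.18, limma adjusted p = 2.92e-07), and Fbp2, the fructose bisphosphatase of muscle, by 1.41 (SE 0.17, limma adjusted p = 4.72e-06). Both rose in COP, where 20 of 38 listed muscle genes fell. The remaining rises were Nek1 (1.51), Gpr4 (1.42) and Tmem14a (1.39): a kinase of cilia and DNA repair, a receptor that senses protons, and a mitochondrial membrane protein.

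**Figure D1:**
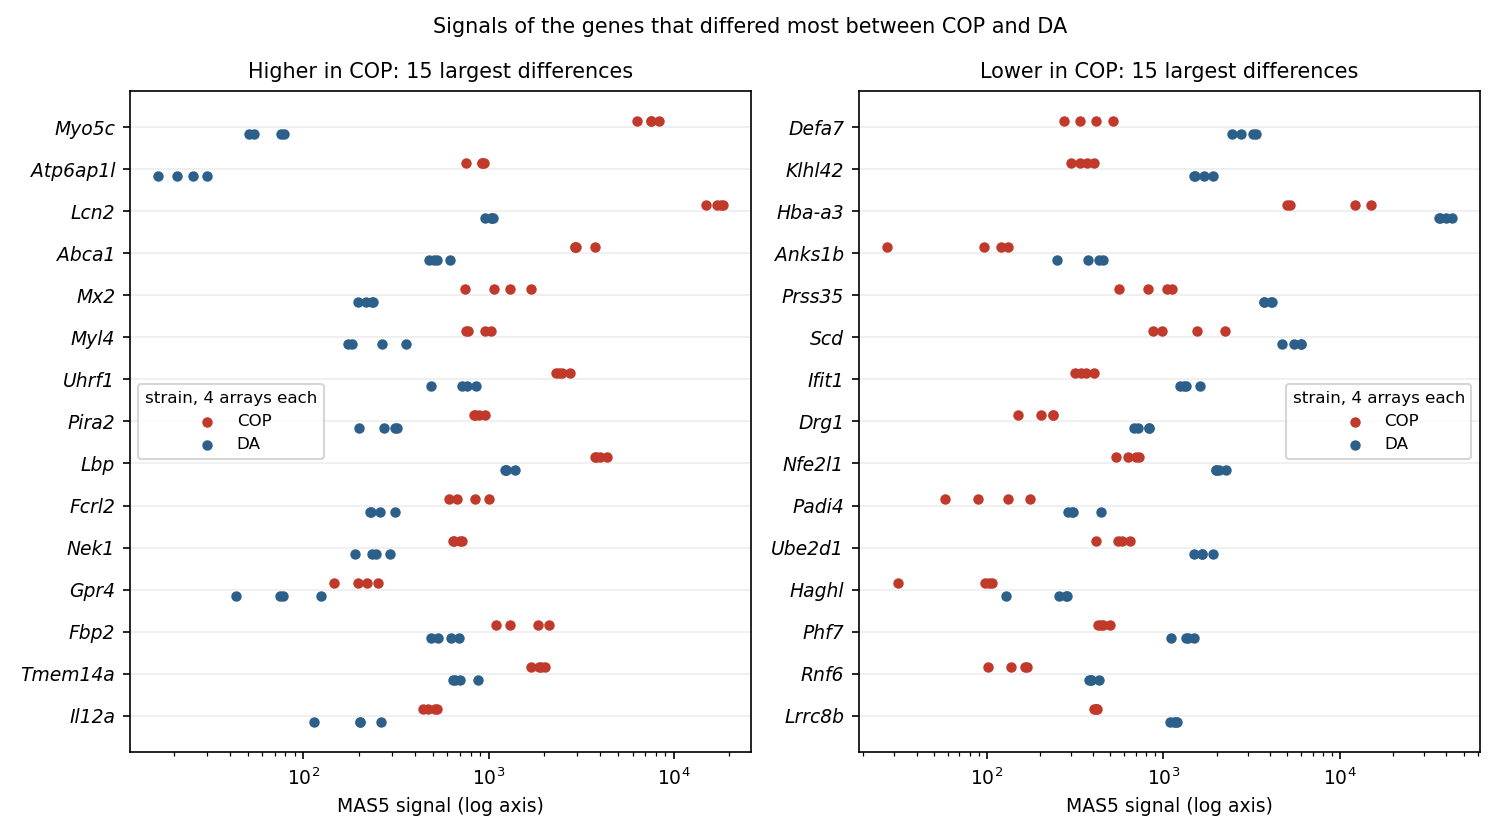
Signals on each of the 4 COP and 4 DA arrays, on a log axis, for the genes with the largest rises and falls; each point is 1 array. Myo5c lies between 6351 and 8316 in COP and between 51.2 and 78.1 in DA. The genes drawn were chosen from calls without overlap between the strains.

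Among the 15 largest falls were neutrophil, red cell and fat cell products. Defa7, an alpha-defensin peptide of granules, had signals of 414, 336, 518 and 274 in COP, against 2434, 3214, 3358 and 2766 in DA. DA stood alone above all 12 other arrays, and the difference was -2.96 (SE 0.17, limma adjusted p = 1.37e-10). Padi4, the neutrophil enzyme that converts arginine of histones to citrulline, had signals of 175, 89.7, 57.8 and 131 in COP, against 308, 305, 445 and 288 in DA, a difference of -1.66 (SE 0.27, limma adjusted p = 2.60e-04), here with COP alone below the others. Defa7 and Padi4 thus fell while the neutrophil product Lcn2 rose. Hba-a3, an alpha-globin chain of haemoglobin, had signals of 5011, 5234, 14986 and 12220 in COP, against 36452, 36653, 39706 and 42742 in DA, a difference of -2.22 (SE 0.24, limma adjusted p = 1.06e-06). COP replicates 1 and 2 were lower than COP replicates 3 and 4, and all 4 were below DA. Scd, the desaturase that makes oleic acid, had signals of 1548, 975, 2224 and 871 in COP, against 4703, 6018, 5494 and 5988 in DA, a difference of -2.08 (SE 0.20, limma adjusted p = 2.30e-07), with COP lowest and DA highest of the 4 strains. Ifit1, an interferon-induced protein that binds foreign RNA, had signals of 315, 404, 365 and 342 in COP, against 1338, 1306, 1609 and 1242 in DA, a difference of -1.94 (SE 0.16, limma adjusted p = 4.29e-08).

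Nfe2l1, a transcription factor of proteasome genes, differed by -1.68 (SE 0.11, limma adjusted p = 1.68e-09) and its 2 other kept probe sets gave -0.29 and -0.96, the second of them called. Ube2d1, a ubiquitin-conjugating enzyme, differed by -1.62 (SE 0.12, limma adjusted p = 7.01e-09), and its other probe set was called at -1.005. Rnf6, a ubiquitin ligase, averaged 143 ± 30.8 in COP and 396 ± 22.9 in DA, and Phf7, a ligase known from mouse sperm development, averaged 456 ± 32.3 in COP and 1329 ± 163 in DA (SD, n = 4 each). Their differences were -1.50 and -1.54. Klhl42, an adaptor of the cullin 3 ubiquitin ligase encoded on chromosome 4, had signals of 367, 299, 335 and 403 in COP, against 1512, 1703, 1899 and 1481 in DA. Its difference was -2.23 (SE 0.13, limma adjusted p = 1.09e-10), but the gene's other kept probe set gave 0.18 and was not called. Anks1b and Prss35 differed by -2.19 and -2.18, and Drg1 (-1.90), Haghl (-1.57) and Lrrc8b (-1.48) completed the 15. Of these 30 genes 7 had the lower strain's mean under the signal of 174, where values are dim. Raising those arrays to that signal gave differences of at least 1.15-fold (Gpr4), 2.11-fold (Anks1b), 1.904-fold (Padi4), 1.31-fold (Haghl) and 2.28-fold (Rnf6) for the 5 not yet given so. Hba-a3, Defa7, Pira2 and Mx2 belong to families of similar genes, whose copies a probe set may not separate.

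The other 2 strains place each difference. Of the 30 genes, the 4 DA arrays lay outside all 12 others for 14, the 4 COP arrays for 12, both strains for 3 of these, and neither for 7. Among the 2211 probe sets called, COP lay outside all 12 others for 327 above and 270 below (27.0%, against 4.07% of all kept probe sets). DA did so for 162 above and 185 below (15.7%, against 2.31%), and for 1293 (58.5%) neither strain did. Klhl42 is an example of the last kind: DA, at 1648 ± 194, was close to LEW at 1582 ± 134, while COP at 351 ± 44.5 was close to F344 at 313 ± 57.1. Abca1 ran the other way, with COP and LEW high, at 3157 ± 409.7 and 2821 ± 349, and DA and F344 low, at 532 ± 60.96 and 575 ± 61.7 (SD, n = 4 each). These positions are descriptions, and the call itself chose probe sets in which COP and DA differ.

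**Figure D2:**
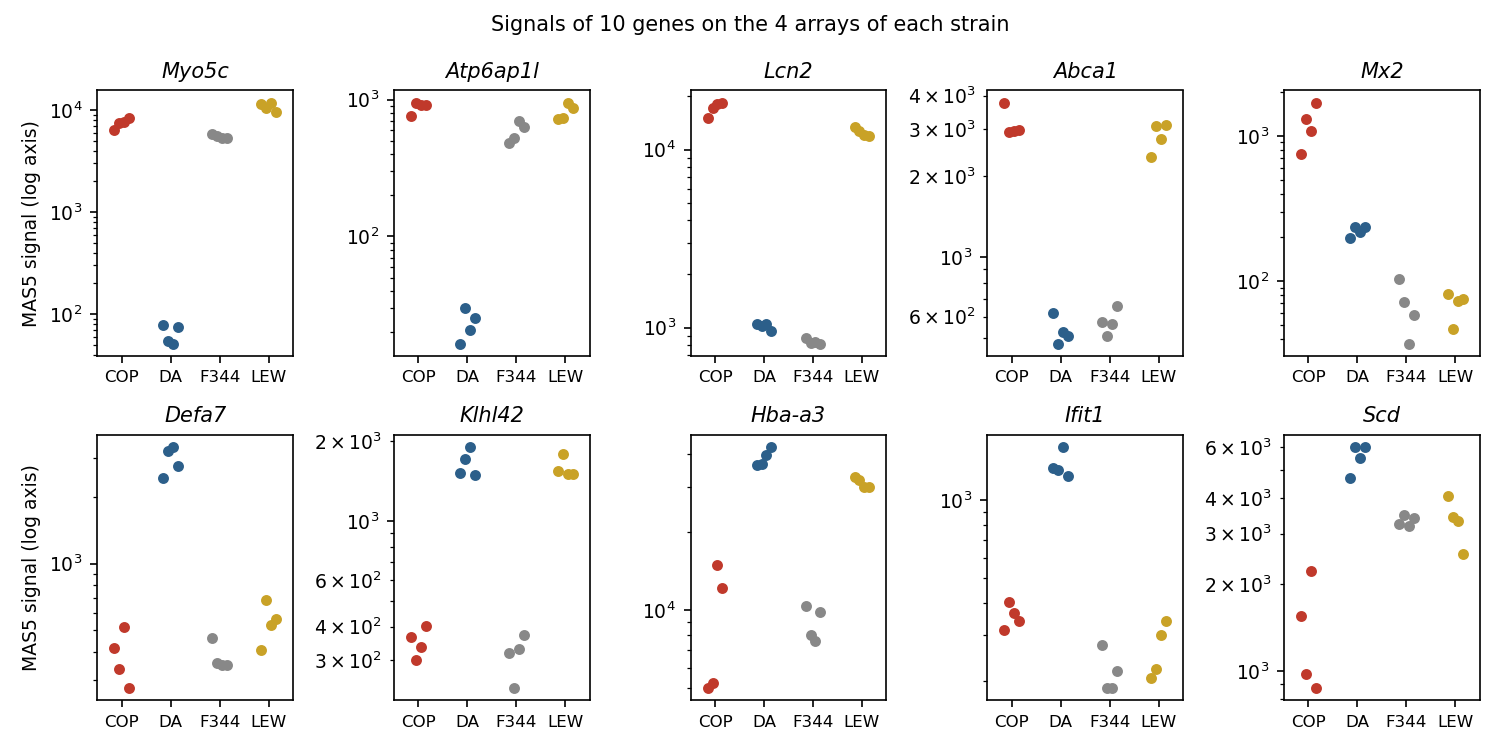
Signals of 10 genes on the 4 arrays of COP, DA, F344 and LEW, on a log axis; each point is 1 array. Myo5c is low in DA alone, Lcn2 is highest in COP, and Klhl42 separates COP and F344 from DA and LEW.

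The counts of list members that follow are to be read against the 5.74% of all genes called higher and 6.42% called lower in COP. Red cell genes leaned lower in COP. Of 24 erythroid genes measured, 13 fell, none rose, and all 24 differences were below 0, with a median of -0.23 beside 0.003 over all genes tested. Hba-a3 (-2.22), Hbe1 (-0.88), Kel (-0.43) and Rhd (-0.41) had the largest falls: 2 globin chains, a blood group metalloprotease and the rhesus antigen carrier. Hbb, a beta-globin chain, gave -0.21 and was not called. Hbe1 averaged 188 ± 28.4 in COP and 348 ± 59.4 in DA and Kel 8475 ± 774 in COP and 11468 ± 1343 in DA (SD, n = 4 each). The mean log2 signal of the list, centred on the mean of the 8 arrays, was -0.28 to -0.12 in COP and 0.15 to 0.25 in DA, so that the strains did not overlap. Summed signals of its members were 329912 to 354616 in COP and 413497 to 464384 in DA. Leaving out 1 array at a time gave 10 to 14 falls. In the RefSeq promoters of 19 of these genes the CACCC box, a motif of erythroid factors counted on both strands, occurred in 57.9%, against 54.9% of all promoters of that length.

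Granulocyte genes moved in both directions. Of 15 neutrophil granule genes 5 rose and 3 fell, with a median of 0.044, and besides Lcn2, Defa7 and Padi4 the largest was Itgam, an integrin chain of phagocytes, at 0.47 (adjusted p = 0.0414). Itgam lost its call without any 1 of COP replicates 1, 2 and 4 and DA replicates 1 and 4, and the list had 3 rises without COP replicate 1. Epx, the eosinophil peroxidase, had signals of 14671, 17725, 17309 and 17283 in COP, against 7247, 8065, 10953 and 9586 in DA, a difference of 0.92 (SE 0.12, limma adjusted p = 2.80e-05). The groups did not overlap, and COP replicate 1 was the lowest in COP. The list of eosinophil, basophil and mast cell genes had 3 rises and 2 falls of 15, and Mcpt9, a mast cell protease, rose by 0.74, while Tpsab1, a tryptase, fell to 208 ± 40.6 in COP, against 320.1 ± 52.7 in DA. Hdc, which makes histamine, differed by -0.56 (adjusted p = 0.0158). Single arrays decided 3 of these calls: Mcpt9 lost its call without COP replicate 2 or DA replicate 2, Tpsab1 without COP replicate 1, COP replicate 2 or DA replicate 3, and Hdc without COP replicate 3.

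Some lymphocyte genes were higher in COP. All 10 B lymphoid genes measured lay above 0 and 3 were called, Vpreb3 (1.28), Pou2af1 (0.55) and Cd79b (0.45): a part of the precursor B cell receptor complex, a B cell coactivator and a receptor signalling chain. Vpreb3 had signals of 3421, 3526, 3181 and 3523 in COP, against 1040.4, 1836, 1317 and 1527 in DA, with no overlap. The summed signal of the B lymphoid list overlapped, at 27554 to 32194 in COP and 21361 to 28953 in DA. Of the T and natural killer cell list 6 of 20 genes passed the filter, and its mean overlapped between strains, at 0.057 to 0.13 in COP and -0.31 to 0.11 in DA. Its 3 rises were Nkg7 (0.59), Cd3g (0.59) and Lck (0.51). Ccl5, a chemokine of T cells, was the 1 fall at -0.85, and it lost its call without DA replicate 3 or DA replicate 4. Of 19 monocyte and macrophage genes 3 rose and 4 fell. Ccr2, the receptor that recruits monocytes, rose to 539 ± 44.9 in COP, against 229.6 ± 47.4 in DA, whereas Ms4a7, a membrane protein of macrophages, fell to 216 ± 44.3 in COP, against 589 ± 105 in DA. Cd163 and Mrc1, scavenger receptors of resident macrophages, fell by 0.50 and 0.44. Without COP replicate 1 the list had 1 rise. In the megakaryocyte and platelet list Ppbp, a platelet chemokine, rose by 0.77, and Treml1, a platelet granule receptor, differed by -0.32 and kept its call without DA replicate 4 but with no other array left out.

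Interferon response genes, which cells switch on when type I interferon activates the STAT and IRF9 complex, leaned higher in COP: 10 of 28 rose, 3 fell, and 24 differences were above 0, with a median of 0.25. Trim25, a ubiquitin ligase of RNA sensing, had signals of 3890.2, 4129.7, 3352 and 3689.7 in COP, against 1349, 1756, 1656 and 1441 in DA, a difference of 1.28 (SE 0.089, limma adjusted p = 2.22e-09). Mx1 averaged 399.6 ± 101 in COP and 225 ± 54.9 in DA (SD, n = 4 each), a difference of 0.82, and its arrays overlapped between strains. Mx2 and Mx1 thus rose while Ifit1, induced by the same signal, fell. The list mean was -0.0349 to 0.34 in COP and -0.24 to -0.0377 in DA, so that COP replicate 1 lay only just above DA replicate 2. The summed signals overlapped, at 71860.5 to 83441 in COP and 69942 to 73972 in DA. With a filter at the 60th percentile 5 rises were counted, where members that this filter removed count as not called.

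The interferon-stimulated response element, the site this complex binds, was searched as GAAANNGAAA on both strands in windows of 300 bases around the gene start, 250 before it and 50 after, taken from RefSeq (GRCr8). Of 21 listed genes that matched a window, 13 (61.9%) held it, against 3.92% of 33469 windows. It was in 6 of 8 genes that rose, 1 of 2 that fell and 6 of 11 not called. Oas1a (chr12:41330216-41330515, plus strand) rose by 0.81, Bst2 (chr16:18254918-18255217, minus strand) by 0.48 and Ifi27 (chr6:128355062-128355361, plus strand) by 0.28, while Rsad2 (chr6:48788071-48788370, minus strand) differed by -0.33. These 4 were chosen after their values were seen, to show the motif in genes that moved either way. They are printed 5′ to 3′ with the motif in capitals. Oas1a and Bst2 each hold 2 matches that overlap, Ifi27 holds 2 that are apart, and in Rsad2 the motif reads on the opposite strand.
Oas1a: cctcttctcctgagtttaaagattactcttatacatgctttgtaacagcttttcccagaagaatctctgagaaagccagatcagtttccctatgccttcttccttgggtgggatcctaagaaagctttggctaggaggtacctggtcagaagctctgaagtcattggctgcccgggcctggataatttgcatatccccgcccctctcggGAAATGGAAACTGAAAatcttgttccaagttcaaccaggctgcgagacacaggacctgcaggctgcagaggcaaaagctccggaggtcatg
Bst2: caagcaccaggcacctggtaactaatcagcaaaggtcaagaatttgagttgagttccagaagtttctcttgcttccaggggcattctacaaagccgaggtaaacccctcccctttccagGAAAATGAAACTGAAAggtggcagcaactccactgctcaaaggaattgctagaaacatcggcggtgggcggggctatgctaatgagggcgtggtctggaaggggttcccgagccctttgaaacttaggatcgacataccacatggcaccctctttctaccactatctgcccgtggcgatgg
Ifi27: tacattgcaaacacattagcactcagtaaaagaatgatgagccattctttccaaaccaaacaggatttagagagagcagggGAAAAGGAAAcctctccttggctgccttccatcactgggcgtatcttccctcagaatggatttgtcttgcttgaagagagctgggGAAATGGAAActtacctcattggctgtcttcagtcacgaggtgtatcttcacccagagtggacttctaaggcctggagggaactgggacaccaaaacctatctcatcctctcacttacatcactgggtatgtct
Rsad2: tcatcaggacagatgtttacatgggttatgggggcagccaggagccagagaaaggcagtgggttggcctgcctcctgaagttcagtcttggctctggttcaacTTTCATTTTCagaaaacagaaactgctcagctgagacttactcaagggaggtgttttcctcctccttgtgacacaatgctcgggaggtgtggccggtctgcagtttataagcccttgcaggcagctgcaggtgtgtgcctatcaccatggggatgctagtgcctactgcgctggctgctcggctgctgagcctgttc

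The class II molecules of the major histocompatibility complex, RT1 in the rat, show peptides to helper T cells, and 4 of their chains fell in COP. RT1-Db1 had signals of 568, 586, 492 and 608 in COP, against 1156, 1121, 1311 and 1171 in DA, a difference of -1.08 (SE 0.081, limma adjusted p = 7.01e-09), while its other probe set, dim in both strains, gave -0.41 and was not called. RT1-Da, RT1-Bb and RT1-Ba differed by -0.80, -0.90 and -0.88, and for RT1-Db1, RT1-Da and RT1-Bb COP lay below all 12 other arrays, while RT1-Ba overlapped between COP and DA. Of the 25 genes of antigen presentation measured, 5 fell and 2 rose (1 without any 1 of COP replicates 1, 3 and 4 and DA replicates 3 and 4), and the median was 0.012. RT1-DMa and RT1-DMb, which load class II molecules, gave 0.078 and -0.061 and were not called. The RT1 genes too are a family of similar copies. The summed signal was 75165 to 80434 in COP and 82515 to 88068 in DA.

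**Figure D3:**
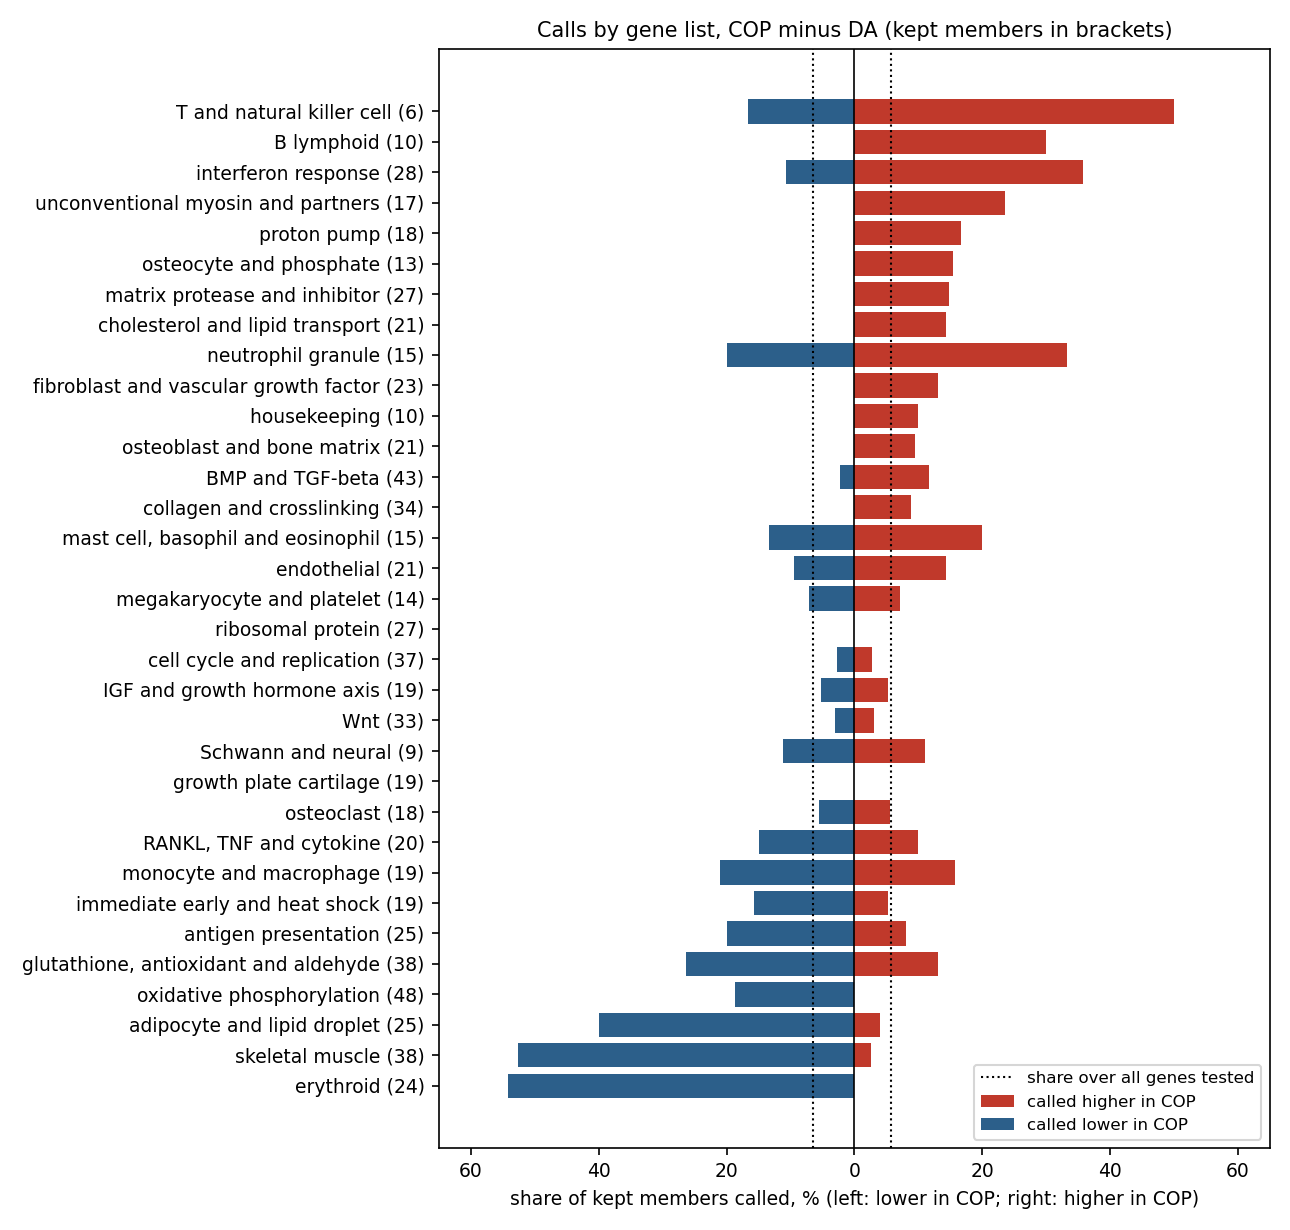
Share of the measured members of each gene list called higher in COP (right) and lower in COP (left), with dotted lines at the shares over all genes, 5.74% higher and 6.42% lower. Erythroid, skeletal muscle and adipocyte genes extend to the left, with 13 of 24, 20 of 38 and 10 of 25 members lower, and interferon response genes to the right, with 10 of 28 higher.

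The shares of bone cell genes called, 9.52% of osteoblast, 15.4% of osteocyte and 11.1% of osteoclast genes, lay near the 12.2% over all genes. The osteocyte list mean did not overlap between strains, at 0.018 to 0.19 in COP and -0.12 to -0.088 in DA. The osteoclast list mean did not overlap either, at 0.0015 to 0.17 in COP and -0.13 to -0.048 in DA. The osteoblast list mean overlapped, as did the summed signals of osteoclast genes. Of 21 osteoblast and bone matrix genes 2 rose and none fell, of 13 osteocyte and phosphate genes 2 rose and none fell, and their medians were 0.12 and 0.19. Mepe, a phosphoprotein of osteocytes that belongs to both lists, had signals of 9873, 9216, 7819 and 7597 in COP, against 4828, 5839, 5739 and 5869 in DA, a difference of 0.63 (SE 0.10, limma adjusted p = 1.64e-04). Enpp1, which makes the mineralization inhibitor pyrophosphate, rose by 0.46, and Ankh, which exports it from cells, by 0.37. Ankh's other kept probe set gave 0.18 and was not called. Enpp1 averaged 4206 ± 489.9 in COP and 3042 ± 178 in DA and Ankh 2436 ± 241 in COP and 1885 ± 146 in DA (SD, n = 4 each). Of 18 osteoclast genes, Atp6v1b2, a subunit of the proton pump that acidifies the resorption pit, rose by 0.43 and Car2, the carbonic anhydrase that supplies the protons and is also a red cell enzyme, fell by 0.27. The other kept probe set of Atp6v1b2 gave 0.23 and was not called, and that of Car2 gave -0.21 and was called. Osteoclast rises numbered 2 without any 1 of COP replicates 3 and 4 and DA replicate 1. None of 19 growth plate cartilage genes was called by limma, and 1 had an unadjusted p under 0.05. The largest of those differences, for Matn1, a cartilage matrix protein, was 0.57 (adjusted p = 0.309), and the cartilage list mean spread from -0.40 to 0.50 among the COP arrays and from -0.23 to 0.06 among the DA arrays.

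Among signalling genes of bone, those of the BMP (bone morphogenetic protein) and TGF-beta pathways had 5 rises and 1 fall of 43 (14.0% called, near the 12.2% over all genes), with a median of 0.044. Bmp4, a ligand that induces bone, had signals of 878, 924, 772 and 796 in COP, against 400.3, 452, 429 and 385 in DA, a difference of 1.01 (SE 0.11, limma adjusted p = 2.01e-06). Its receptor Bmpr1a rose by 0.77, and Id3, a target of the pathway, by 0.33, while Tgfbi, a matrix protein induced by TGF-beta, fell by 0.34. The list had 2 rises without COP replicate 1 or DA replicate 2 and 3 without COP replicate 2, COP replicate 4, DA replicate 3 or DA replicate 4. Its falls numbered 2 without COP replicate 4 and 3 without DA replicate 2. Socs2, which restrains growth hormone signalling, had signals of 510.5, 452, 484 and 431 in COP, against 161, 226, 219 and 156 in DA, a difference of 1.32 (SE 0.25, limma adjusted p = 9.46e-04). Igf2, the fetal insulin-like growth factor, fell to 5163 ± 551 in COP, against 8632 ± 1145 in DA, a difference of -0.74 (SE 0.10, limma adjusted p = 3.01e-05). These were the only calls among 19 genes of that axis. In the Wnt list of 33 genes, the only rise was Cped1 (1.16), a gene near Wnt16 rather than a Wnt ligand or receptor. Lrp4, a receptor for sclerostin, differed by -0.57 with overlapping strains. Wnt rises numbered 2 without any 1 of COP replicate 4 and DA replicates 2 and 4, and falls 2 without COP replicate 3 or DA replicate 3.

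In the fibroblast and vascular growth factor list 3 of 23 rose, Vegfb by 0.64, and the vascular receptor Flt1 and the Tie2 ligand Angpt2, each of which lost its call without DA replicate 3 among other arrays, by 0.91 and 0.43. The other kept probe set of Flt1 gave 0.062 and was not called. Without DA replicate 3 the list had 1 rise. Endothelial genes went both ways, with 3 rises and 2 falls of 21: Aplnr, the apelin receptor, rose by 0.70, and Pecam1, the vessel adhesion molecule, fell by 0.55. Endothelial rises numbered 1 without COP replicate 3, DA replicate 1 or DA replicate 3, and falls 4 without DA replicate 2. Matrix proteases and their inhibitors had 4 rises and no fall of 27, Timp1 (0.64), Plat (0.38), Mmp8 (0.37) and Mmp13 (0.28). Timp1, the inhibitor of metalloproteases, averaged 13877 ± 1975 in COP and 8882 ± 600.5 in DA (SD, n = 4 each). Collagen and crosslinking genes had 3 rises of 34, Col6a1 (0.33), Plod2 (0.31) and Pcolce (0.30), with 1 counted without COP replicate 1, 5 without COP replicate 4 and 6 without DA replicate 1. In the RANKL, TNF and cytokine list, Il1r1, the interleukin 1 receptor, rose by 0.51 and Il1b, its ligand, fell by 0.58, with 2 rises and 3 falls of 20. The falls numbered 1 without DA replicate 3, and the rises 1 without any 1 of COP replicates 2, 3 and 4 and DA replicates 1 and 4.

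Fat cell genes leaned lower in COP. Of 25 adipocyte and lipid droplet genes 10 fell and 1 rose, with a median of -0.31. Adipoq, the hormone adiponectin, had signals of 1895, 1604, 2475 and 1769 in COP, against 3226, 3028, 3671 and 2985 in DA, a difference of -0.75 (SE 0.10, limma adjusted p = 2.56e-05). Plin1, which coats the fat droplet, had signals of 877, 784, 1024 and 858 in COP, against 1456, 1446, 1516 and 1526 in DA, a difference of -0.75 (SE 0.10, limma adjusted p = 1.64e-05), and Cidea, a droplet protein of brown fat, differed by -1.14 (SE 0.21, limma adjusted p = 9.16e-04). For Adipoq and Plin1, as for Scd, COP lay below all 12 other arrays. The list mean was -0.36 to 0.01 in COP and 0.06 to 0.31 in DA, without overlap, and 8 to 10 falls were counted with 1 array left out. The 1 rise was not called without any 1 of COP replicates 1, 2 and 3 and DA replicates 1 and 4, and 2 were counted without DA replicate 2. Cholesterol and lipid transport genes had 3 rises and no fall of 21, Abca1, Srebf2 (0.48), the master factor of cholesterol synthesis, and Soat1 (0.44), which esterifies cholesterol. Soat1 lost its call without COP replicate 3 or DA replicate 3, and its other kept probe set gave -0.29 and was not called.

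Skeletal muscle genes leaned lower too, with 20 falls and 1 rise of 38 and a median of -0.38. Myh4, the fast myosin heavy chain, had signals of 12005, 17149, 19554 and 15473 in COP, against 23245, 24737, 23111 and 25364 in DA, a difference of -0.61 (SE 0.10, limma adjusted p = 1.62e-04). Pygm, the glycogen phosphorylase of muscle, differed by -0.82 (SE 0.14, limma adjusted p = 3.44e-04), and Myh3, the embryonic myosin, by -0.85 (SE 0.15, limma adjusted p = 6.24e-04). The other kept probe sets of Pygm gave -0.39 and -0.37 and were not called. The list mean was -0.44, -0.28, 0.020 and -0.018 in COP and 0.12, 0.069, 0.19 and 0.34 in DA. COP replicates 1 and 2 were lowest and DA replicate 4 was highest, and the count depended on them. There were 8 falls without COP replicate 1, 10 without COP replicate 2 and 6 without DA replicate 4. Over all arrays left out in turn the falls ran from 6 to 23. Summed signals were 656048 to 836898 in COP and 887629 to 1073880 in DA. Of 48 genes of oxidative phosphorylation 9 fell and none rose, with a median of -0.17, and Ndufv2, a complex I subunit, differed by -0.40 (SE 0.084, limma adjusted p = 0.0031). That count was 1 without COP replicate 1, 3 without COP replicate 2, and 2 without DA replicate 3 or DA replicate 4. The part of muscle content in the oxidative phosphorylation and adipocyte differences was not tested.

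Myh1, another fast myosin heavy chain, was the 1 muscle gene called higher, at 0.77 (SE 0.090, limma adjusted p = 3.63e-06) on its brightest probe set, with signals of 11948, 11738, 11956 and 13037 in COP, against 7126, 6097, 6914 and 8701 in DA. Of its other kept probe sets, 2 were called higher at 0.60 and 0.90, 1 at 0.19 was not called, and 1 was called lower at -3.21, with signals of 1173 ± 85.7 in COP and 10869 ± 481 in DA (SD, n = 4 each). A direction for Myh1 therefore depends on the probe set.

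**Figure D4:**
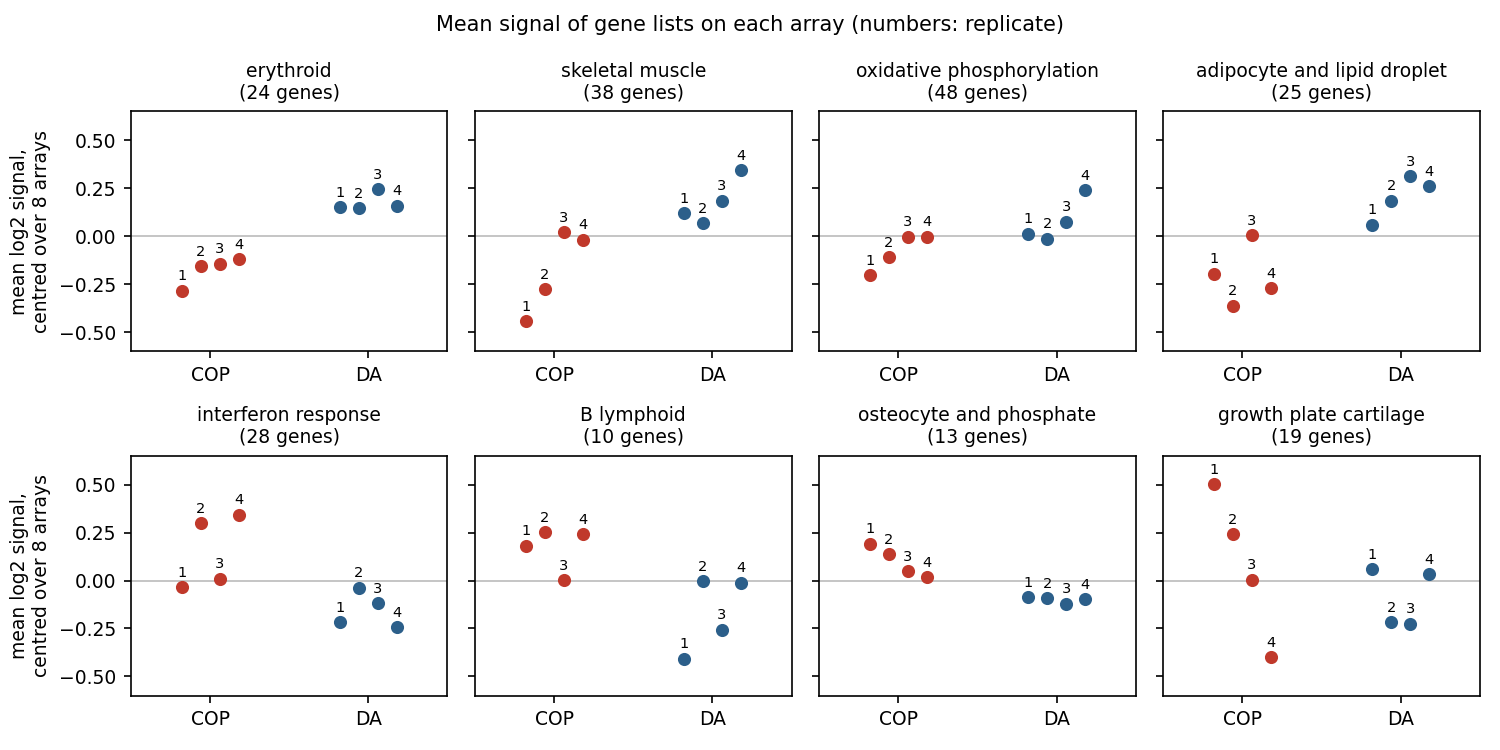
Mean log2 signal of the members of each gene list on the 4 COP and 4 DA arrays, centred on the mean of the 8 arrays; each point is 1 array, numbered by replicate. Erythroid, muscle and adipocyte genes are lower in COP without overlap, interferon response genes are higher with COP replicate 1 just above DA replicate 2, and cartilage genes spread widely within COP.

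Of 38 genes of glutathione, antioxidant and aldehyde metabolism 5 rose and 10 fell. Gclc, the rate-limiting enzyme of glutathione synthesis, had signals of 2689, 2824, 2936 and 2959.7 in COP, against 5039, 5524, 5802 and 5048 in DA, a difference of -0.91 (SE 0.075, limma adjusted p = 3.21e-08), with COP lowest and DA highest of all strains. Gstt3, a glutathione transferase, had signals of 359, 277, 374 and 303 in COP, against 777, 513, 821 and 785 in DA, a difference of -1.13 (SE 0.15, limma adjusted p = 1.42e-05), whereas Aldh1a1, which makes retinoic acid, rose to 1343 ± 283 in COP, against 589 ± 65.9 in DA. Akr1b8 rose by 0.60. Without COP replicate 1 the list had 5 falls, and its rises numbered 3 without COP replicate 1, DA replicate 1 or DA replicate 2 and 2 without COP replicate 3. Dusp1, a phosphatase induced by stress, fell by 0.85, but its other kept probe set gave 0.059 and was not called. Hspb1, a small heat shock protein, fell by 0.51 in a list of heat shock and immediate early genes with 1 rise and 3 falls of 19. The 1 rise was not called without any 1 of COP replicate 3 and DA replicates 1, 3 and 4. Of 37 cell cycle genes, Aurkb, a mitotic kinase, rose by 0.59 and Ttk, a checkpoint kinase, fell by 0.47, and falls numbered 2 without DA replicate 1 and 3 without DA replicate 4. The motif TTTGAA, known from cell cycle promoters and counted on both strands, was in 46.9% of 32 windows of that list, against 18.3% of all.

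The proton pump list, which holds Atp6ap1l, had 3 rises and no fall of 18, and Atp6v1f rose by 0.24. The unconventional myosins and their partners, which include Myo5c, had 4 rises and no fall of 17. Myo1g, a myosin of blood cells, rose by 0.43, and the vesicle GTPases Rab27a and Rab8a by 0.20 and 0.18. Both GTPase calls were lost without any 1 of COP replicates 1, 2 and 4 and DA replicates 1 and 4, among others. The 2 other kept probe sets of Rab27a were called higher as well, each at 0.48. The list had 2 rises without COP replicate 1, COP replicate 2, DA replicate 1 or DA replicate 4. The proton pump and myosin lists were chosen with earlier results of these data known, and their counts include Atp6ap1l and Myo5c. Gfap, the filament of glia and non-myelinating Schwann cells, fell by 1.002, while S100b, also of Schwann cells, rose by 0.63, the 2 calls among 9 Schwann and neural genes. Polr2a rose by 0.37, the 1 call among 10 housekeeping genes and lost without DA replicate 4, and none of 27 ribosomal protein genes was called by limma (3 at an unadjusted p under 0.05), the largest difference being -0.17 (adjusted p = 0.0531) for Rpl6. Under quantile normalization 3 ribosomal genes were called higher. Of the sex-linked genes, Xist differed by 0.06 and Uty by -0.10 (adjusted p = 0.406), and neither was called by limma (0 at an unadjusted p under 0.05).

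Chromosome 4, on which the series was designed, held 63 calls among 606 genes (10.4%), against 12.3% of 9911 genes on the other chromosomes, with 30 higher (4.95%) and 33 lower (5.45%) in COP. The strains did not overlap for 14.4% of these genes, and 0.66% were called with at least 2-fold. Besides Klhl42, the largest change was in Cped1, a gene near Wnt16 that human association studies link to bone density: it had signals of 634, 564, 891 and 623 in COP, against 222, 297, 315 and 388 in DA, a difference of 1.16 (SE 0.18, limma adjusted p = 1.09e-04), with COP above all other arrays. Bhlhe40, a clock and hypoxia repressor, had signals of 645, 514, 603 and 766 in COP, against 289.6, 321, 286 and 299 in DA, a difference of 1.07 (SE 0.14, limma adjusted p = 1.47e-05). Cyren, a regulator of DNA end joining, fell to 164 ± 33.4 in COP, against 349.7 ± 53.2 in DA, or at least 1.94-fold lower with dim arrays raised to a signal of 174, and Mrps35, of the mitochondrial ribosome, differed by -0.98 (SE 0.10, limma adjusted p = 7.32e-07). Npy, neuropeptide Y, fell by 0.71, and Bcat1, an enzyme of branched-chain amino acid breakdown, rose by 0.72, with its other probe set called at 1.11. Rps4y2 (0.81), Tmem243 (0.68) and Bmt2 (-0.63) completed the 10 named. In 6 blocks of 101 genes in chromosome order the calls were 8, 15, 8, 5, 9 and 18, the last block running from Zfp384 to Resf1.

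Leaving out Y, with 1 gene tested and 0 called, the share of called genes by chromosome ran from 7.59% on X and 7.93% on chromosome 6 to 18.2% on chromosome 13, 18.4% on chromosome 9 and 19.5% on chromosome 16. Chromosome 9 had 48 genes lower and 28 higher in COP, and chromosome 16 had 32 lower and 27 higher. These shares were not tested.

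**Figure D5:**
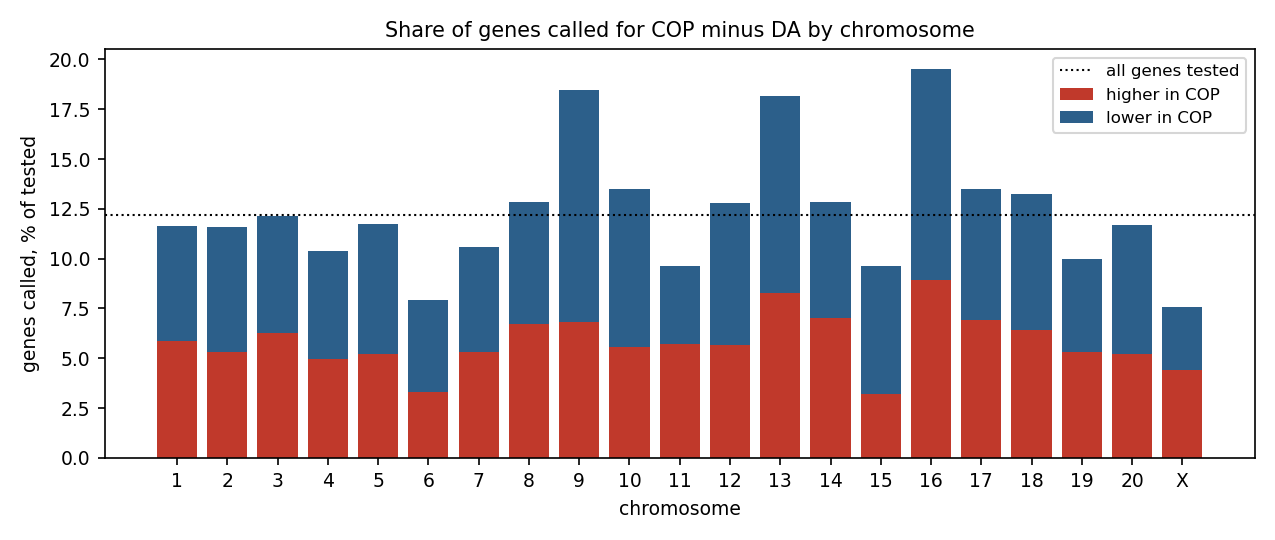
Share of tested genes called higher and lower in COP on each chromosome, in percent. Chromosomes 16, 9 and 13 have the highest totals, at 19.5%, 18.4% and 18.2%, and chromosome 4 stands at 10.4%.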

How the data were processed

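RNA of the proximal femur was hybridised to Affymetrix rat arrays, 1 per sample. The deposited intensity values are linear signals, which the submitters' processing notes credit to MAS5. Its version and scaling target are not given in the sources used here, and the authors' signals were used with no further scaling. The arrays' number limits the precision. Signals below 1 were set to 1 and log2 was taken. Of 31042 probe sets, controls left out, the 18625 with a mean at or above the 40th percentile (a signal of 174) were kept, and limma 3.58.1 in R 4.3.3 fitted 4 strain means to all 16 arrays (12 residual degrees of freedom) with an intensity trend. P-values were adjusted by the Benjamini-Hochberg method over all kept probe sets. A gene is its brightest kept probe set with exactly 1 symbol in the platform annotation (20826 probe sets had 1 symbol, 436 several, 9780 none), and 20758 probe sets matched RefSeq (GRCr8), which gave chromosomes.

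Genes were named by a rule: from calls without overlap, 15 rises, 15 falls and 10 chromosome 4 changes by size, plus up to 4 called members of each list, or its largest member where none was called. Numbered loci were passed over (1 rise). Lower bounds against a signal of 174 were added after the values were seen; no detection calls were used. The members and the 34 lists (974 genes, 730 kept) were chosen with earlier results of these data known. The labels do not say that arrays are separate animals, so the p-values reflect only the spread among these samples, which may be technical. Sequence differences between the strains under the probes were not examined. Tested on simulated data for COP minus DA (18625 probe sets), the fit recovered 56.8% of log2 changes of 0.5, 90.4% of 1 and 99.6% of 2, and 4.31% of calls were false. The simulation drew independent normal noise for each probe set and changed far fewer probe sets than were called here. Its rates therefore need not hold for these data, where members of a list shifted together on single arrays. Alternatives were quantile normalization, median centring, a pseudocount, other filters, no trend, robust moderation, array weights, a replicate block, the 8 arrays alone, a looser threshold, the mean of probe sets, and leaving out each array. Figures were drawn with matplotlib 3.10.9.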

Additional observations from a re-analysis of the deposited data

Results flagged for a closer look

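In 20 of 322 groups of 4 arrays examined, the highest or lowest array lay far from the other 3 of its strain; chance alone flags about 1 in 20 such groups. Among the COP arrays, replicate 1 stood apart for Atp6ap1l at 755 (others 917 to 949), Abca1 at 3770.5 (others 2929 to 2981), Treml1 at 995 (others 1225 to 1276), Epx at 14671 (others 17283 to 17725) and Myo1g at 1443 (others 1548 to 1558). COP replicate 3 stood apart for Haghl at 31.4 (others 97.6 to 106) and Ccr2 at 606 (others 511 to 520.2). Among the DA arrays, replicate 1 stood apart for Lbp at 1388 (others 1230.3 to 1249.8), Rnf6 at 430.04 (others 379.8 to 387), Mepe at 4828 (others 5739 to 5869) and Ttk at 2581 (others 2664 to 2673). Replicate 2 did for Gstt3 at 513 (others 777 to 821). Replicate 3 did for Padi4 at 445 (others 288 to 308), Haghl at 129 (others 257 to 285) and Angpt2 at 629 (others 945 to 988). Replicate 4 did for Rpl6 at 52389.5 (others 44682 to 45897). All of these values are signals. Of the list means, on the centred log2 scale, COP replicate 1 was high for neutrophil granule genes at 0.091, COP replicate 2 low for unconventional myosins and partners at 0.22, COP replicate 4 low for Wnt genes at -0.090, and DA replicate 3 high for erythroid genes at 0.25.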

How the results depend on the processing

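Of the 5 counts of calls, each stayed within 1.5 times its value under every alternative run except 2. Without COP replicate 1 the genes called numbered 847, the lowest of 847 to 1220 over the arrays left out in turn, and at an adjusted p under 0.10 the probe sets called higher in COP numbered 1661. Leaving out each array gave 1524 to 2078 probe sets and 42 to 60 chromosome 4 genes called. Median centring gave 919 probe sets higher and 1170 lower in COP. Correlations of deviations between same-numbered COP and DA arrays were 0.0133 to 0.0875. Between COP and DA arrays of different number they were -0.0864 to 0.0585. Whether arrays of the same number shared a processing step was not tested. The replicate block gave 2087 probe sets, 1052 higher and 1035 lower, 1208 genes and 63 on chromosome 4. Of 127 named genes, 21 lost their call under at least 1 alternative and Rpl6 gained one. Myh1 reversed to -0.15 with the mean of its probe sets, which hold both directions. Of 68 counts over lists, 45 moved by over 1.5 times under some alternative. Muscle falls numbered 13 under quantile normalization and in the 8 arrays alone, 9 with no filter and 6 with no trend, and oxidative phosphorylation falls 5, 4, 3 and 2, and 3 under the replicate block. The cause of these changes was not tested.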

Other observations

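Probe sets of the same gene did not always move together. Of 2786 genes with more than 1 kept probe set, 554 had a call and 137 had at least 2, of which 113 were called the same way throughout and 24 were called both ways, Myh1 among them. Of the named genes, 22 had other kept probe sets, of which 12 had another called the same way and 1 had one called the opposite way.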
